A study of Mus musculus with 4 samples.

Results

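Helper and regulatory T cells were followed here through 8 genes in RNA of lymph node B cells from miR-146a transgenic and wild type mice. The genes are Cd28, Ctla4, Tnfrsf4 and Pdcd1, which encode co-stimulatory and inhibitory receptors, Il2ra, which encodes a cytokine receptor chain, and Gata3, Maf and Foxp3, which encode transcription factors. They were chosen by name, and all 8 of the 8 were measured, out of 17097 genes with a probe set of their own. The 8 genes had 10 probe sets annotated to them alone, and each gene was represented by its brightest probe set on average. Foxp3 had 2 more probe sets that the annotation shares with its neighbour Ccdc22.

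The wild type group held 2 male mice and the transgenic group 2 male mice, all Balb/C and 6 to 8 weeks old, with 1 array each. The transgenic mice over-express miR-146a; the labels do not name the promoter of the transgene. B cells were enriched by magnetic removal of the other cells, and dead cells were depleted. Whether the transgene acts in B cells, T cells or both cannot be read from these arrays.

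T helper cells need a signal from CD28 beside that of the T cell receptor, and CTLA-4 competes with CD28 for the same ligands, CD80 and CD86, on B cells and dendritic cells. OX40, the product of Tnfrsf4, and PD-1, the product of Pdcd1, act later, OX40 in survival of activated T cells and PD-1 as a brake. Regulatory T cells are defined by the transcription factor FOXP3 and carry the interleukin-2 receptor alpha chain CD25, encoded by Il2ra, together with much CTLA-4. GATA-3 directs the type 2 helper programme and c-MAF, the product of Maf, promotes interleukin-4 and interleukin-21 in helper cells. miR-146a is known to be abundant in regulatory T cells.

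The sequences shown first are the microRNA that the transgenic mice over-express and the start regions of 3 of the 8 genes, Ctla4 and Gata3, whose groups did not overlap, and Foxp3, whose groups did. The mature microRNA (RefSeq, GRCm38.p6, chr11:43374435-43374456, minus strand) is written with its seed, bases 2 to 8, in capitals.
mmu-miR-146a-5p: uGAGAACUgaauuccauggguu

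In the start regions (RefSeq, GRCm38.p6, 250 bases before to 50 after the annotated start) capitals mark the letters GGAAA, the core bound by NFAT factors, and GATAA, the core bound by GATA factors, each on either strand. The Ctla4 window lies at chr1:60908775-60909074 on the plus strand, the Gata3 window at chr2:9878551-9878850 on the minus strand and the Foxp3 window at chrX:7579426-7579725 on the plus strand.
Ctla4: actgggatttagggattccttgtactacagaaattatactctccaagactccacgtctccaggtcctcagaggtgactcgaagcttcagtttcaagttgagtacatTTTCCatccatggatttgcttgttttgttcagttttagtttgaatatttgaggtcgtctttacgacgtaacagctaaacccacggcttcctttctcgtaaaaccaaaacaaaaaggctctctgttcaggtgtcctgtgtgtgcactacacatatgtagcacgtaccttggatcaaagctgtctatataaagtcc
Gata3: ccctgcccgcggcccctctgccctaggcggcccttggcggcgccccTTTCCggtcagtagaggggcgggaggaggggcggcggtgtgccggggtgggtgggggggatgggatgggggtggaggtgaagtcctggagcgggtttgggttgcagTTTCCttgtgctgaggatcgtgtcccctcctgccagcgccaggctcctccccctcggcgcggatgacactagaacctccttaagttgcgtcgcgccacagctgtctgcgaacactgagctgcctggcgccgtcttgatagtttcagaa
Foxp3: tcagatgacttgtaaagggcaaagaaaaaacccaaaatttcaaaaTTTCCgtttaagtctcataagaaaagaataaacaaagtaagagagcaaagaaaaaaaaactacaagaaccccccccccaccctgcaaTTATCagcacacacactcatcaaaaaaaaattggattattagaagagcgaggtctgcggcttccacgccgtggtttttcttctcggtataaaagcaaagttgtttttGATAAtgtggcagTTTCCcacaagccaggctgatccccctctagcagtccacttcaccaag

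The table of start regions held 7 windows for 6 of the 8 genes, 2 of them for Foxp3. GGAAA was found in 7 of the 7 windows and in 61.3% of all 32851 windows of this length. GATAA was found in 3 of the 7, that of Tnfrsf4 and both of Foxp3, against 25.4% of all windows. The forkhead word TGTTTAC was in none of the 7 and in 3.65% of all windows. These matches describe letters and are not binding sites. No positions are given for the probe sets.

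The labelled cell type was checked against its markers. Transcripts of B cells were bright, with medians of 14 B cell genes from 10.08 to 10.13 on the wild type arrays and from 8.76 to 8.92 on the transgenic arrays (log2 signal). T cell transcripts were bright as well, so the 8 genes were read in a preparation that holds T cell RNA in both groups. Medians of 14 alpha beta T cell genes were 9.75 and 9.84 on the wild type and 10.01 and 10.09 on the transgenic arrays. On the transgenic arrays they lay above the B cell medians. Levels of different genes rest on different probes, so these medians do not give shares of cells. Cd3d, a chain of the CD3 complex named after its values were seen, lay at 11.42 and 11.39 on the wild type arrays and at 11.65 and 11.75 on the transgenic arrays. In such bulk RNA more cells of a type cannot be told apart from more RNA per cell. Single arrays also stood apart. Array medians were 4.48 for transgenic mouse 1 and 4.59 to 4.61 for the other 3. Upper quartiles were 6.14 for transgenic mouse 1 and 6.51 to 6.56 for the other 3, a wider gap. Beta-actin signal at its 3' end exceeded that in its middle by 0.47 for transgenic mouse 1 and by 0.14 to 0.16 for the others. Xist, an RNA of female cells, lay at 5.96 and 6.19 on the wild type and at 9.13 and 9.56 on the transgenic arrays, which goes against the male label of the transgenic mice, while the Y-linked Eif2s3y lay at 8.29 and 8.34 and at 7.80 and 8.00. The part of any of these in the results was not tested.

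The question was how transgenic and wild type mice differed in these genes. Cd28, Ctla4, Tnfrsf4, Il2ra, Gata3 and Maf lay higher on both transgenic arrays than on both wild type arrays, by 0.31 to 0.83 on the log2 scale, a 1.24-fold to 1.77-fold higher signal. Foxp3 and Pdcd1 differed by -0.06 and -0.03, with overlapping groups. None of the 8 passed an adjusted p of 0.05 by limma over 45037 probe sets, where 0.0466% passed in either direction, and 5 had an unadjusted p under 0.05 and a higher signal (Gata3, Cd28, Il2ra, Ctla4 and Maf), against 3.83% of genes higher and 10.2% lower by that measure. Higher without overlap were 6 of the 8, lower without overlap none, whereas over all genes 17.7% were higher and 31.4% lower without overlap. The median change of the 8 was 0.46, and that of all genes -0.05. The genes were chosen with earlier results of these arrays known, so the count and the median describe them and are no test.

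**Figure D1:**
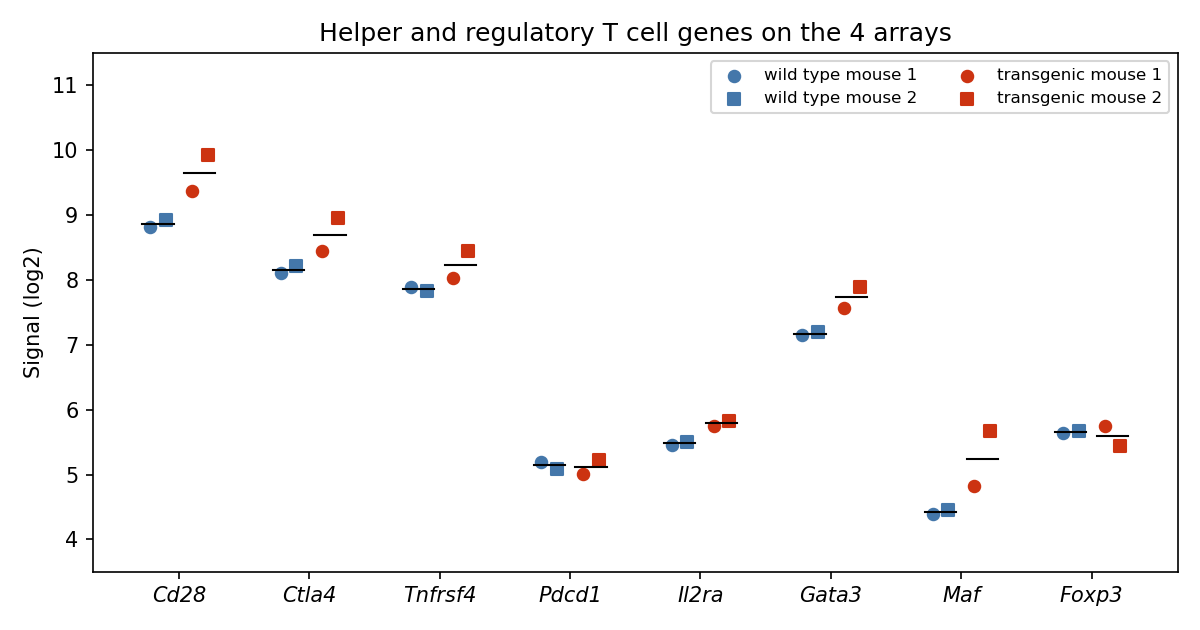
Log2 signal (y axis) of the 8 genes (x axis) on the 4 arrays, blue for wild type, red for transgenic, circles for mouse 1 and squares for mouse 2; black lines mark the group means of 2 mice. Both red points lie above both blue points for 6 genes, and the colours overlap for Pdcd1 and Foxp3; heights of different genes rest on different probes and are not compared.

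Among the receptors, Cd28, the co-stimulator that lowers the threshold of T cell activation, had signals of 8.82 and 8.92 in wild type mice 1 and 2 and of 9.37 and 9.93 in transgenic mice 1 and 2 (probe set 1417597_PM_at). Both transgenic values were above both wild type values, and transgenic mouse 2 was the highest. The means were 8.87 ± 0.07 and 9.65 ± 0.39 (SD, n = 2 each), a 1.72-fold higher signal (log2 change 0.78, SE 0.21, limma adjusted p = 0.255). The other probe set of Cd28 (1437025_PM_at) gave 7.92 and 8.03 in wild type mice, 8.97 in transgenic mouse 1 and a transgenic mean of 8.99 ± 0.02 (SD, n = 2). There the 2 transgenic mice lay close together and above both wild type mice, and the signal was 2.02-fold higher (log2 change 1.01, SE 0.10, limma adjusted p = 0.0935).

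Ctla4, which encodes the inhibitory receptor for the same ligands, had 8.10 and 8.22 in wild type and 8.45 and 8.95 in transgenic mice. The groups did not overlap, and transgenic mouse 1 lay 0.30 and transgenic mouse 2 0.79 above the wild type mean. The signal was 1.46-fold higher (log2 change 0.54, SE 0.19, limma adjusted p = 0.340). On chromosome 1 Cd28, Ctla4 and Icos are neighbours, with 0 other protein-coding genes between Cd28 and Ctla4 or between Ctla4 and Icos in the RefSeq table of GRCm38.p6. Icos, another receptor of that family, had 8.51 and 8.47 in wild type and 9.73 and 10.03 in transgenic mice (log2 change 1.39, SE 0.14, limma adjusted p = 0.0935), and its other probe sets differed by 1.20 and 1.60.

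Tnfrsf4, which encodes the co-stimulator OX40, had 7.89 and 7.83 in wild type and 8.03 and 8.44 in transgenic mice. Transgenic mouse 1 lay just above the wild type arrays and transgenic mouse 2 clearly so. The signal was 1.29-fold higher (log2 change 0.37, SE 0.17, limma adjusted p = 0.419). Pdcd1, which encodes the inhibitory receptor PD-1, had 5.19 and 5.09 in wild type and 5.01 and 5.22 in transgenic mice. One transgenic value was the lowest of the 4 and the other the highest, and the difference was -0.03 (SE 0.12, limma adjusted p = 0.947). Its sign turned with median centring and quantile normalization of the arrays (0.03 and 0.09), without wild type mouse 1 (0.03) and without transgenic mouse 1 (0.08).

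Il2ra, which encodes CD25, the chain that gives the interleukin-2 receptor its high affinity, had 5.46 and 5.50 in wild type and 5.75 and 5.83 in transgenic mice (probe set 1420692_PM_at). The groups did not overlap and the 2 mice of each group lay close together. The signal was 1.24-fold higher (log2 change 0.31, SE 0.10, limma adjusted p = 0.310). The other, dimmer probe set of Il2ra (1420691_PM_at) had 4.51 and 4.43 in wild type and 4.22 and 4.76 in transgenic mice. It overlapped between the groups (log2 change 0.02, SE 0.20), so the 2 probe sets of the gene differed, and their mean changed by 0.17.

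Of the transcription factors, Gata3, the regulator of type 2 helper cells, had 7.15 and 7.19 in wild type and 7.56 and 7.90 in transgenic mice. Both transgenic values were higher, a 1.47-fold difference (log2 change 0.56, SE 0.15, limma adjusted p = 0.252). Maf, which encodes c-MAF, had 4.39 and 4.46 in wild type and 4.82 and 5.67 in transgenic mice. Its size rested on transgenic mouse 2, which lay 1.25 above the wild type mean where transgenic mouse 1 lay 0.40 above it. The log2 change was 0.83 (SE 0.29, limma adjusted p = 0.344), 1.25 without transgenic mouse 1 and 0.40 without transgenic mouse 2. The wild type signals of Maf were below the array medians.

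Foxp3, which encodes the defining factor of regulatory T cells, had 5.65 and 5.67 in wild type and 5.75 and 5.44 in transgenic mice (1420765_PM_a_at). Transgenic mouse 1 was the highest and transgenic mouse 2 the lowest of the 4, and the difference was -0.06 (SE 0.14, limma adjusted p = 0.869). The sign turned after quantile normalization (0.13) and without transgenic mouse 2 (0.09). The probe sets shared with Ccdc22 gave no common direction. One had 7.19 and 7.07 in wild type and 7.33 and 7.34 in transgenic mice (1447759_PM_x_at, difference 0.20), and the other had 6.56 and 6.38 against 5.67 and 6.42 (1455805_PM_x_at, difference -0.43). Signal on those probe sets cannot be assigned to Foxp3. None of the 8 lay at the level of the non-specific control probe sets, whose upper quartile was 3.48 to 3.57 by array.

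The changes depended on scaling and on which transgenic mouse was kept. After quantile normalization Cd28, Gata3 and Ctla4 rose past the threshold, by 0.94, 0.76 and 0.72 (limma adjusted p = 0.0405, 0.0308 and 0.0484), while 0.893% of all probe sets passed as higher. Without transgenic mouse 1, 5 of the 8 passed as higher (Maf, Cd28, Gata3, Ctla4 and Tnfrsf4), where 4.03% of probe sets did. Without transgenic mouse 2, 5 passed as higher (Cd28, Gata3, Maf, Il2ra and Ctla4), where 9.5% of probe sets did. In these fits the lone transgenic mouse is assumed to vary like the wild type mice, which were close together. Without either wild type mouse none of the 8 passed and none of all probe sets did (1631 and 1576 probe sets at an unadjusted p under 0.05). Of the 8, 7 were higher in transgenic mouse 2 than in transgenic mouse 1, as were 83.7% of the 12024 genes above the 40th percentile of signal.

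**Figure D2:**
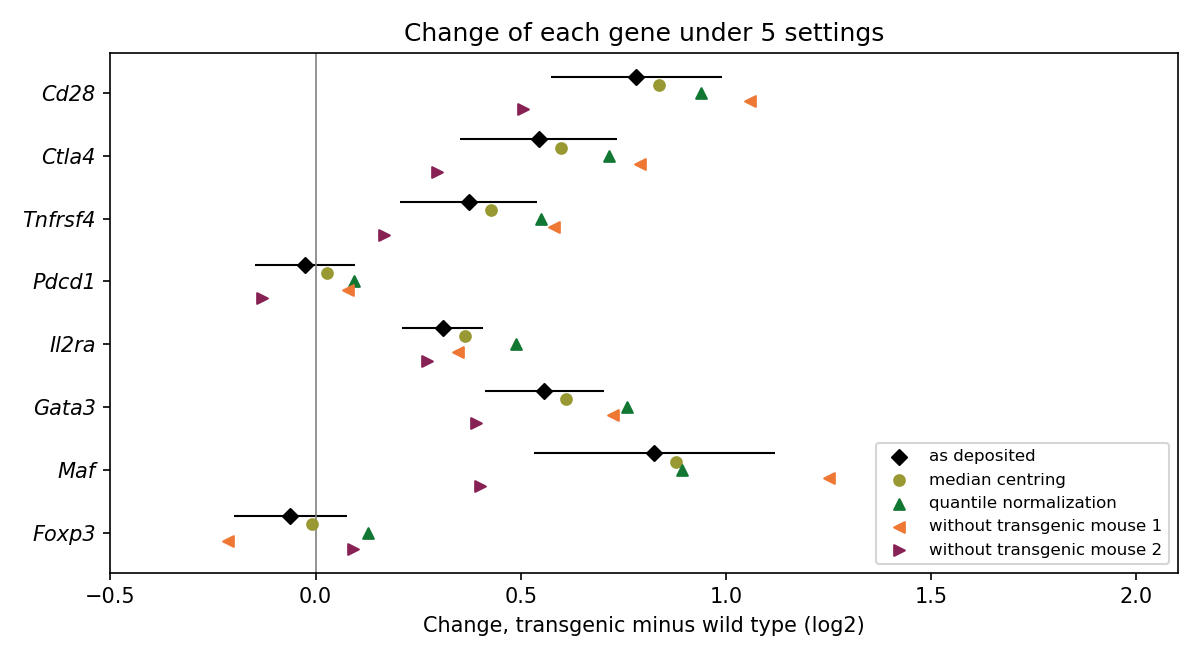
Change between transgenic and wild type mice (x axis, log2) of the 8 genes (y axis) for the values as deposited (black diamonds, bars are the limma SE), after 2 other scalings and without each transgenic mouse. The 6 genes from Cd28 to Maf other than Pdcd1 stay right of 0 in all 5 settings, with Maf spread from 0.40 to 1.25, and Pdcd1 and Foxp3 lie on both sides of 0.

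T cell genes in general were compared with the 8. For this and each later list, the shares over all genes were 17.7% higher and 31.4% lower without overlap. At a limma unadjusted p under 0.05 they were 3.83% higher and 10.2% lower. Of 20 listed genes of alpha beta T cells 14 had a probe set of their own, of which 10 were higher and 1 lower without overlap (median change 0.23; 0 past the threshold of limma, 6 higher and 1 lower at an unadjusted p under 0.05). Their summed signal was 13.77 and 13.78 on the wild type and 13.93 and 14.13 on the transgenic arrays (log2 of the sum). Trat1, an adaptor of the T cell receptor, differed by 0.83, Ubash3a, a regulator of its signalling, by 0.55 (its dimmer probe set by -0.10), Thy1, a surface glycoprotein of T cells, by 0.49, and Lef1, a transcription factor of naive T cells, by -0.62. The CD3 chains Cd3d, Cd3e and Cd3g, named after their values were seen, differed by 0.29, 0.18 and 0.18.

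Each gene was therefore also expressed as its difference from the median of those 14 T cell genes on the same array. An equal shift of all genes on an array does not touch this quantity. Transgenic mouse 1 differed unequally, with an upper quartile of 6.14 against 6.51 to 6.56 on the other arrays. Its non-specific control median was 2.77 against 2.62 to 2.65. Such an unequal difference is not removed by this scale. On this scale Cd28 and Maf were higher by 0.52 and 0.57, Gata3 and Ctla4 by 0.30 and 0.29, and Il2ra by 0.05, each without overlap. These are 5 of the 8, where 2.44% of all genes were higher without overlap on this scale. The difference of Il2ra was no larger than the gap between the 2 wild type mice (0.05). Tnfrsf4 overlapped (0.12). Foxp3 and Pdcd1 were lower without overlap, by -0.32 and -0.28, as were 75.7% of all genes. The 14 T cell genes themselves changed by -0.62 to 0.83 as deposited, so unequal changes are also found within that list. Transgenic mouse 2 deviated more from the wild type mean than transgenic mouse 1 for Maf (0.95 and 0.18) and Cd28 (0.76 and 0.29). The same held for Ctla4 (0.49 and 0.08), Gata3 (0.43 and 0.17), Tnfrsf4 (0.28 and -0.05) and Foxp3 (-0.51 and -0.13). The reverse held for Pdcd1 (-0.22 and -0.35), while the 2 mice were alike for Il2ra (0.05 and 0.05). No test was run on this scale, and the part of T cell content in the values was not tested.

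**Figure D3:**
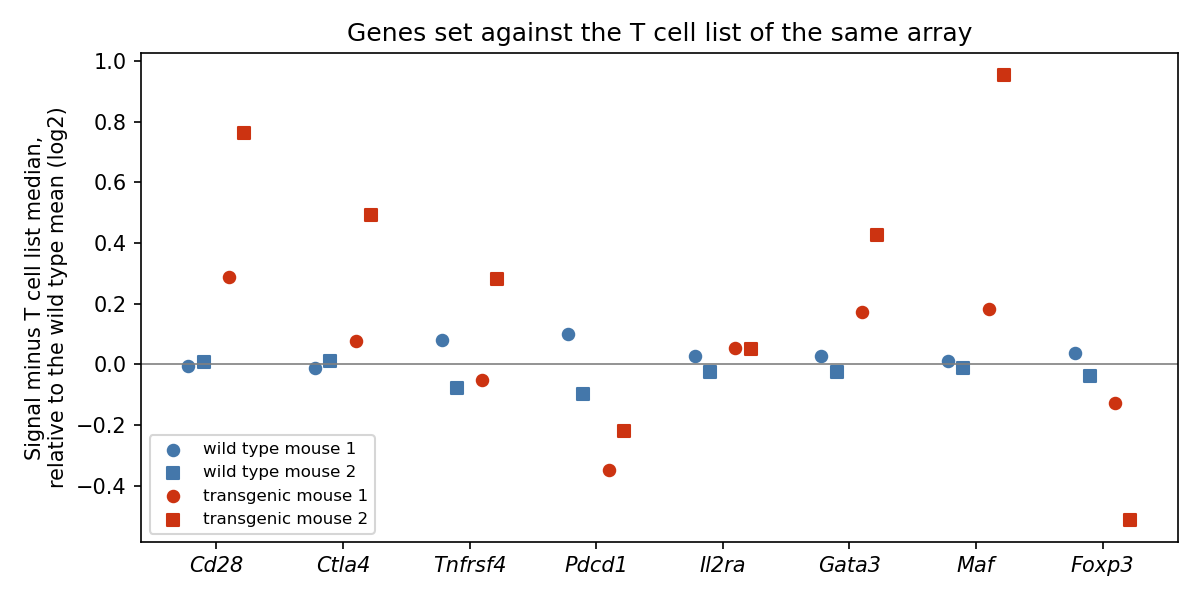
Signal of each gene (x axis) minus the median of 14 T cell genes on the same array, with the wild type mean set to 0 (y axis, log2); blue is wild type, red transgenic, circles mouse 1 and squares mouse 2. Both red points lie above the blue for Cd28, Ctla4, Il2ra, Gata3 and Maf, and below them for Pdcd1 and Foxp3.

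Markers of T cell subsets differed in direction. Among 8 genes of CD8 T cells 5 were higher and 2 lower without overlap (median 0.56; 0 past the threshold of limma, 4 higher and 1 lower at an unadjusted p under 0.05). Cxcr6, a chemokine receptor of memory T cells, differed by 1.80 (SE 0.11, limma adjusted p = 0.056), Eomes, a transcription factor of effector and memory CD8 cells, by 1.17, and the CD8 chains Cd8a and Cd8b1 by 1.14 and 0.74. The summed signal of this CD8 list was 11.93 and 12.00 in wild type and 12.37 and 12.65 in transgenic mice. Its 2 lower genes, Gzmk and Ccl5, named after their values were seen, differed by -0.85 and -0.33. Cd4, the co-receptor of helper and regulatory T cells, named after its values were seen, lay lower in the transgenic mice, at 7.76 and 7.90 in wild type and at 7.05 and 7.03 in transgenic mice (log2 change -0.79, SE 0.11, limma adjusted p = 0.127), and its dimmer probe set differed by -0.08. Dendritic cells also express Cd4.

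Other genes of regulatory T cells showed no common direction. Of 20 listed 17 were measured, of which 6 were higher and 4 lower without overlap (median -0.09; 0.07 after quantile normalization; 0 past the threshold of limma, 3 higher and 1 lower at an unadjusted p under 0.05). Itgae, the integrin CD103 of regulatory and tissue-resident T cells, had 5.94 and 5.91 in wild type and 6.77 and 6.88 in transgenic mice (log2 change 0.90, SE 0.10, limma adjusted p = 0.105). It passed as higher after quantile normalization (1.11, limma adjusted p = 0.0285). Ccr8, a chemokine receptor, and Prdm1, which encodes BLIMP-1, differed by 0.45 and 0.43, and Capg, an actin-capping protein, by -0.64. Ikzf2, which encodes the regulatory T cell factor Helios, and Tnfrsf18, which encodes the co-stimulator GITR, were named after their values were seen. Both overlapped between the groups, at -0.09 and -0.14, and at 0.11 and 0.03 after quantile normalization.

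Other genes of helper T cells differed in both directions, as did all genes, of which 17.7% were higher and 31.4% lower without overlap. Of 24 listed 22 were measured, with 9 higher and 6 lower without overlap (median 0.11; -0.01 without transgenic mouse 2; 0 past the threshold of limma, 5 higher and 5 lower at an unadjusted p under 0.05). Il17a, the cytokine of type 17 helper and gamma delta T cells, had 5.20 and 5.69 in wild type and 7.61 and 8.39 in transgenic mice (log2 change 2.55, SE 0.32, limma adjusted p = 0.114). Il4, the type 2 cytokine, had 3.46 and 3.30 in wild type mice, near the upper quartile of the non-specific controls, and 4.85 and 5.05 in transgenic mice (log2 change 1.58, SE 0.13, limma adjusted p = 0.0806). For both the 2 transgenic mice lay well above the 2 wild type mice, and both rose past the threshold after quantile normalization (limma adjusted p = 0.0188 and 0.0112). Mast cells and basophils also make interleukin-4: of 6 measured genes of mast cells, basophils and innate lymphoid cells 3 were higher and 1 lower without overlap, and the summed signal was 6.32 and 6.26 in wild type and 7.38 and 7.93 in transgenic mice. Cpa3, a mast cell protease, differed by 2.36 and Fcer1a, a chain of the IgE receptor, by 1.42, whereas Mcpt8, a basophil protease, differed by -0.13 and Ms4a2, another chain of the IgE receptor named after its values were seen, by 0.08. The part of mast cells, basophils and innate lymphoid cells was not tested. Cxcr5, the chemokine receptor of follicular helper T cells and of B cells, had 8.68 and 8.73 in wild type and 7.22 and 7.64 in transgenic mice (log2 change -1.28, SE 0.17, limma adjusted p = 0.121). Tbx21, the type 1 helper factor T-bet, named after its values were seen, differed by -1.13 (SE 0.27, limma adjusted p = 0.229).

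The ligands and partner chains of the receptors were read in the same RNA. Of 10 listed 9 were measured, 5 higher and 4 lower without overlap (median 0.14; 0 past the threshold of limma, 1 higher and 2 lower at an unadjusted p under 0.05). Cd86, a ligand of CD28 and CTLA-4, had 7.25 and 7.32 in wild type and 6.74 and 7.07 in transgenic mice (log2 change -0.38), and its other probe set differed by -0.56. Pdcd1lg2, a ligand of PD-1, had 6.37 and 6.35 against 5.12 and 5.78 (log2 change -0.92, SE 0.24, limma adjusted p = 0.247). Icosl, the ligand of ICOS, differed by -1.59 (SE 0.16, limma adjusted p = 0.0935) and by -0.17 on a dimmer probe set. Il2rb, the beta chain that pairs with CD25, differed by 0.60 on its brightest probe set but by -0.16 and -0.20 on the others. The remaining genes of the list were named after their values were seen. Cd80, Tnfsf4, Il15 and Il2 were higher without overlap, by 0.14, 0.14, 0.28 and 0.25 on their brightest probe sets. Cd274 was lower without overlap, by -0.43. All 14 measured B cell genes were lower without overlap in these arrays (median -0.98; Blk, a B cell kinase, -1.31), and the part of B cell RNA in the lower ligands was not tested.

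Genes that carry the signal of CD28 and the T cell receptor inside the cell differed by -0.54 to 0.33. Of 19 listed 16 were measured, with 2 higher and 6 lower without overlap (median -0.14; 0.02 after quantile normalization; 0 past the threshold of limma, 1 higher and 2 lower at an unadjusted p under 0.05). Over all genes 17.7% were higher and 31.4% lower without overlap, so the counts of this list lie near the shares of all genes. Lat, the adaptor of the T cell receptor, differed by 0.33, and Traf2, an adaptor of OX40 and of CD40, by -0.54. Akt1, a kinase downstream of CD28, differed by -0.37, with other probe sets at 0.00 and 0.49, and Nfatc1, a transcription factor of both T and B cells, by -0.43. B cells also express Traf2, Akt1 and Nfatc1.

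**Figure D4:**
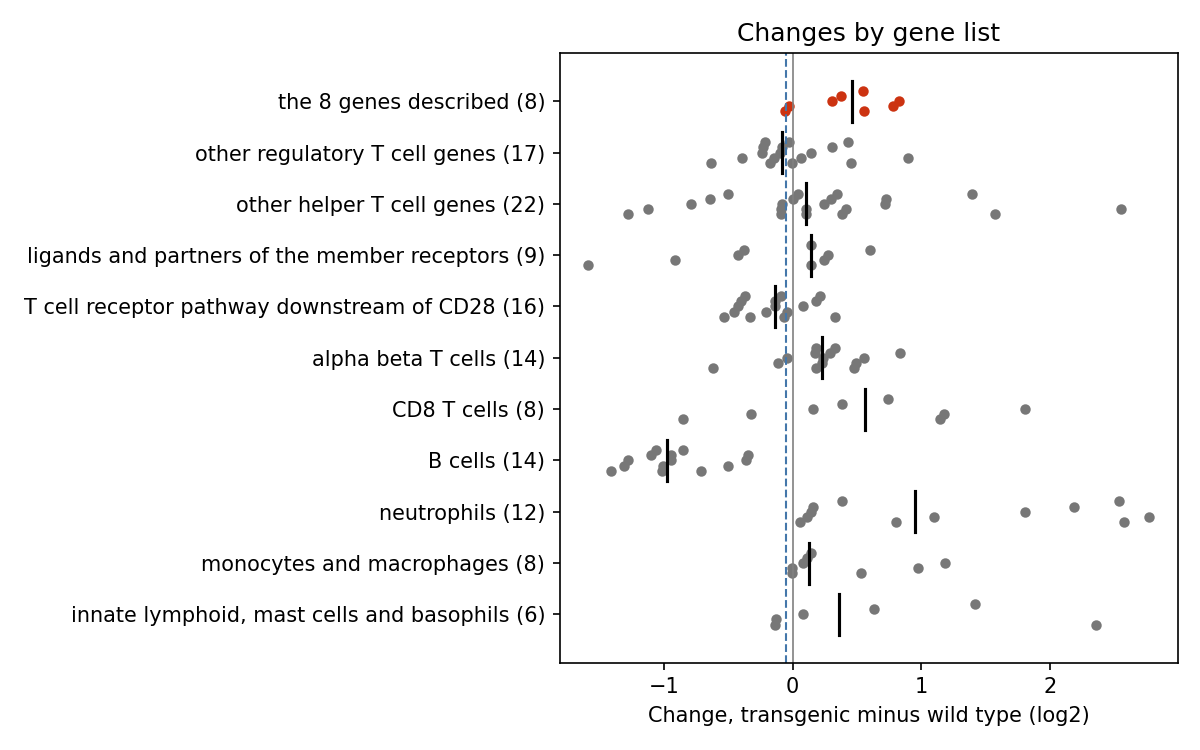
Change between transgenic and wild type mice (x axis, log2) of each measured gene in 11 lists (y axis, number of genes in brackets); red points are the 8 genes described, black bars the list medians and the dashed line the median of all genes, -0.05. The 8 genes have a median of 0.46, between the alpha beta T cell list (0.23) and the CD8 T cell list (0.56), and the B cell list lies at -0.98.

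Markers of other cells were read on the same arrays, since a magnetic depletion can leave some behind. Of 12 measured neutrophil genes 11 were higher without overlap, and their summed signal was 8.82 and 8.82 in wild type and 10.59 and 11.07 in transgenic mice. Ngp, a granule protein, rose past the threshold (log2 change 2.77, limma adjusted p = 0.0219), the 1 gene of these lists that did, while S100a9, S100a8 and Ltf differed by 2.53, 2.58 and 1.09. Of 8 monocyte and macrophage genes 5 were higher without overlap (median 0.13, summed signal 10.31 and 10.28 against 10.70 and 10.96), with Ccr2 at 1.19, Cd14 at 0.97, Lyz2 at 0.53 and Fcgr1 at 0.11. Dimmer probe sets differed by 0.20, 0.70 and 0.93 for Ccr2 and by 0.65 for Fcgr1. Of 8 dendritic cell genes 5 were higher and 2 lower without overlap (median 0.12, summed signal 8.64 and 8.73 against 8.72 and 8.71), with Cd209a at 0.46, Xcr1 at 0.55, Flt3 at -0.36 and Itgax at -0.50. Natural killer genes had 2 higher and 1 lower without overlap of 8 (median 0.05, summed signal 11.01 and 11.03 against 10.56 and 10.95), and stromal genes 5 lower of 9 (median -0.13, summed signal 8.30 and 8.39 against 8.10 and 8.07). Their part in the values of the 8 genes was not tested.

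Genes with the most similar profile were sought among the 12024 genes above the 40th percentile, by the distance of the 4 log2 values after each gene's own mean was taken off. Nearest to Cd28 were Prickle1, Cd69 and Nfkbiz (distances 0.07, 0.07 and 0.07), of which Cd69 encodes an early activation marker of lymphocytes and had 10.10 and 10.25 in wild type and 10.68 and 11.16 in transgenic mice. Nearest to Ctla4 were Arhgap5, Tgfbr1, a receptor of transforming growth factor beta, and 5430427O19Rik (0.06 to 0.08). Nearest to Gata3 were Fam189b, Iqgap2 and Chordc1 (0.04 to 0.05). Nearest to Maf were Cbx6 (0.05) and the chemokine genes Ccl12 (0.09) and Ccl8 (0.14), with Ccl8 at 6.46 and 6.60 in wild type and 7.02 and 7.69 in transgenic mice. Il2ra was nearest to Tfdp1, N4bp2l1 and Slc35f2 (0.01 to 0.02), Tnfrsf4 to Fam234a, Flvcr1 and Xiap (0.03 to 0.04), Foxp3 to Reln, Bpifb2 and Fndc11 (0.02 to 0.03) and Pdcd1 to Atp10d, Plin5 and Gdpd5 (0.02). With 4 arrays many genes share a profile, and likeness here is a description of these arrays alone.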

How the data were processed

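Log2 signals of 45141 probe sets on 4 arrays were deposited by the authors as 1 value table; background correction, normalization and probe summary are not given in the sources used here, and the log2 scale was read from the range of values. Per the labels' protocols, total RNA was labelled with biotin by a 3' IVT kit. Groups came from the sample titles. By the platform annotation 28898 probe sets name 1 gene, 551 more than 1 and 15588 none. Of the 17097 genes 16936 were matched to RefSeq by Entrez ID, with the same symbol. The 104 control probe sets were left out.

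The 2 groups were compared by the two-sided moderated test of limma 3.58.1 (R 4.3.3) with Benjamini-Hochberg adjustment across 45037 probe sets and a threshold of 0.05; the residual degrees of freedom were 2 and the prior ones 2.69. The fit was tested on simulated data. With 2 mice a group the number of arrays limits precision. The alternatives were quantile normalization, median centring, the mouse number as a block, a filter at the 40th percentile of mean signal (4.10), trended and robust eBayes, averaging a gene's probe sets, and leaving out each array. The 8 genes and the other lists were chosen with earlier results of these data known. From each other list at most 4 genes were named, by smallest p, and for each of the 8 the 3 genes nearest in profile. Figures were drawn with matplotlib 3.10.9.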

Additional observations from a re-analysis of the deposited data

How the results depend on the processing

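Against 21 probe sets past the threshold as deposited, limma gave 870 after quantile normalization, 614 after median centring and 51 with the filter on low values, where fewer probe sets are tested. Leaving out 1 array gave 0 to 19110. With the mouse number as a replicate block it gave 15, and none of the 8 genes passed. The deviations of arrays with the same number had a correlation of 0.01. With so few arrays per group this value cannot decide whether the numbers pair the mice. The median change of the 8 genes (0.46) was 0.63 after quantile normalization and 0.28 to 0.65 without 1 array. Of 80 values of the 8 genes under alternatives 61 kept their direction and their side of the threshold, 13 kept the direction and passed it, and 6 turned sign. Those were Foxp3 after quantile normalization (0.13) and without 1 array (-0.21 to 0.091), and Pdcd1 after quantile normalization (0.095), after median centring (0.028) and without 1 array (-0.13 to 0.079). The cause was not tested. Folds of genes near the non-specific controls (upper quartile 3.48 to 3.57), such as Il4 in wild type mice, are uncertain. Whether such folds understate a change was not tested.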
